A study of Ovis aries with 15 samples.

Results

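Chemokines, interleukins and their receptors were examined in mammary tissue of Romney sheep. They were taken as the features of the deposited table whose symbol begins with CCL, CXCL, CX3CL, CCR, CXCR, CX3CR or IL directly followed by a digit, leaving out IL6ST. Of 24691 features, 121 carried such a symbol. At least 10 exon reads in at least 6 of 15 libraries were found for 58 of them, and these 58 are the genes described below. The samples were needle biopsies of the mammary gland of 2-year-old ewes in their first pregnancy, taken in late pregnancy (gestation day 135, with an SD of 2.4 days) and in lactation (15 days after lambing, with an SD of 1.27 days). Late pregnancy gave 9 libraries and lactation 6, each made from the pooled RNA of several ewes. By the labels a late pregnancy pool came from 3 ewes and a lactation pool from 2, whereas the study's methods state 3 throughout. The ewes' own dams had been fed ad libitum (HM), at maintenance (MM) or below maintenance (LM) from day 21 to 50 of gestation and all at maintenance until day 140, and each of these 3 groups supplied 3 late pregnancy pools and 2 lactation pools. The ewes themselves were kept alike on pasture. By the study's methods, ewes sampled in late pregnancy were sampled again in lactation. Which ewes entered which pools is not stated, so the pools of the 2 states are likely to share ewes. The main test of the state took the 15 pools as independent, and its p-values and SEs do not allow for this repeated sampling.

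Chemokines are small secreted proteins that guide leukocytes along a gradient by acting on receptors with a membrane-spanning serpentine fold. Their names follow the spacing of the first cysteines (CC, CXC and CX3C). Interleukins are secreted signals of leukocytes and of epithelium and stroma, read by receptors that are mostly built from a ligand-specific chain and a chain shared by several cytokines. In the mammary gland these proteins are known for drawing lymphocytes and plasma cells into the tissue, for supplying antibody-secreting cells to milk, and for the defence against infection.

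The late pregnancy libraries held between 6471237 and 16898986 exon reads, and the lactation libraries between 9014506 and 24001031. Levels are given as CPM, counts per 1000000 reads of a library size scaled by the trimmed mean of M-values (TMM), since the 7 milk protein genes listed made up between 13.7 and 23.4% of the reads before lambing and between 71.3 and 75.8% after it. Scaled in this way, the libraries were equal to 10934345 to 29583442 reads before lambing and 4547308 to 11513324 after it. A single exon read was therefore worth 0.0338 to 0.0915 CPM in late pregnancy and 0.0869 to 0.220 CPM in lactation, and genes of low level rest on few reads in lactation. The mammary origin of the tissue was clear from its markers, as all 7 milk protein genes tested were higher in lactation and the 10 luminal epithelial markers summed to 1736 to 2147 CPM in late pregnancy and 2643 to 2874 CPM in lactation.

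Most of the 58 genes were lower in lactation. By edgeR's quasi-likelihood test, with p-values adjusted over all 13252 features that passed the same read filter, 38 of the 58 (65.5%) were lower in lactation and 7 (12.1%) were higher at an adjusted p under 0.05. Of all features tested, 35.4% were lower and 33.3% were higher. The median log2 change, lactation minus late pregnancy, was -0.74 over the 58 genes and -0.03 over all features. In 21 of the 58 genes (36.2%) every lactation library lay below every library of late pregnancy, and in 5 (8.62%) every one lay above, against 20.2% and 20.3% of all features. The 7 higher genes were IL1R1, IL6R, CCL28, IL17RB, IL4R, CXCL12 and IL4I1. The read filter bears on these counts. All 58 genes reached 10 reads in at least 6 libraries of late pregnancy, whereas 32 of them did so in fewer than 6 lactation libraries and 16 in none, so that these counts describe the genes that passed and are not evidence of a direction. Where the mean over the 15 libraries reached 5 CPM, in 25 of the genes, 14 fell and 6 rose (56.0% and 24.0%), and the median log2 change was -0.22. Among all 9180 features above the same level, 33.2% fell and 39.9% rose, around a median of 0.05.

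The direction also depends on the scaling. With library size alone, without TMM, the median of all features was -1.93 and that of the 58 genes was -2.65, and no gene of the 58 was called higher. Relative to the median of all features, the median of the 58 was -0.71 after TMM scaling. For the quantile-normalized RPKM, tested by limma as log2(RPKM + 1), which understates changes of low genes, it was -0.28, with 37 genes lower and 8 higher. Higher and lower below therefore mean relative to the bulk of genes after TMM scaling. In bulk tissue, fewer cells of a type and less RNA per cell cannot be told apart.

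**Figure D1:**
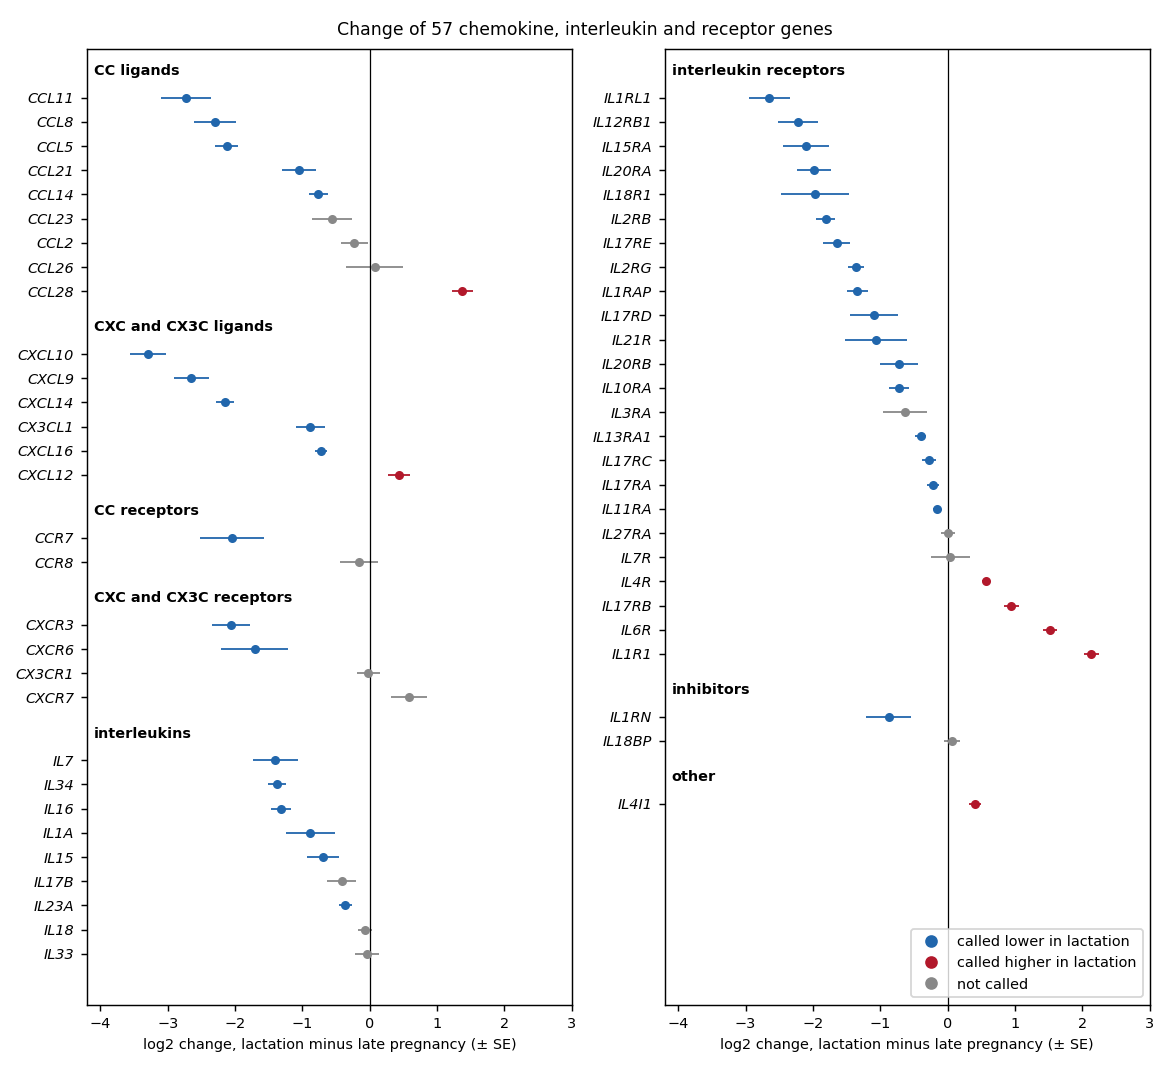
Points are the log2 changes (lactation minus late pregnancy, horizontal axis) of 57 of the 58 genes, listed by role, with bars of 1 SE from edgeR. Blue points (37) were called lower in lactation, red points (7) higher and grey points (13) neither, and the changes run from -3.30 for CXCL10 to 2.13 for IL1R1.

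Of the 6 CXC and CX3C ligands that passed the read filter, 5 were lower in lactation and 1, CXCL12, was higher (median log2 change -1.52). CXCL14, a chemokine made by epithelium, had the highest level per kilobase of the 58 genes in late pregnancy. It was read at 149 to 211 CPM in late pregnancy (median 162) and 27.2 to 52.8 CPM in lactation (median 32.5). Every lactation library lay below every library of late pregnancy, and the mean was 4.46 times lower (log2 change -2.15 ± 0.13, adjusted p = 2.15e-11). CXCL9 and CXCL10, which are induced by interferon-gamma and attract activated T cells, had the largest falls among these ligands. CXCL10 was read at 6.0 to 14.2 CPM in late pregnancy (median 10.4) and 0.542 to 1.69 CPM in lactation (median 1.14), without overlap (log2 change -3.30 ± 0.26, adjusted p = 1.02e-09). Its locus lies within that of ART3, which fell alongside it (log2 change -3.13), and 45.8% of the CXCL10 reads were uniquely placed. Counting these alone, its log2 change was -2.93, yet reads of the 2 genes cannot be told apart without strand. CXCL9 was read at 3.09 to 4.85 CPM in late pregnancy (median 4.29) and 0.136 to 1.39 CPM in lactation (median 0.472), also without overlap (log2 change -2.65 ± 0.26, adjusted p = 2.34e-08). In lactation it rested on 29 reads over the 6 libraries, of which a single library held 16.

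The remaining CXC and CX3C ligands changed less. CXCL16, a membrane-bound chemokine that is also a scavenger receptor, was read at 10.6 to 13.9 CPM in late pregnancy (median 12.8) and 6.51 to 9.12 CPM in lactation (median 7.22), and the states did not overlap (log2 change -0.72 ± 0.10, adjusted p = 1.37e-06). CX3CL1 (fractalkine), the tethered ligand of CX3CR1, was read at 3.46 to 7.12 CPM in late pregnancy (median 4.16) and 1.13 to 3.21 CPM in lactation (median 2.66) and did not overlap either (log2 change -0.88 ± 0.22, adjusted p = 0.00122). CXCL12, a stromal chemokine that retains haematopoietic cells and lymphocytes, was read at 7.05 to 16.8 CPM in late pregnancy (median 10.5) and 9.52 to 18.2 CPM in lactation (median 15.8). Its libraries overlapped between the states, and the rise was small (log2 change 0.44 ± 0.17, adjusted p = 0.0247). Without the lactation library of MM pool 1 or MM pool 2 the log2 change of CXCL12 was 0.38 or 0.39 and no longer called, nor was it called within any dam nutrition group alone.

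**Figure D2:**
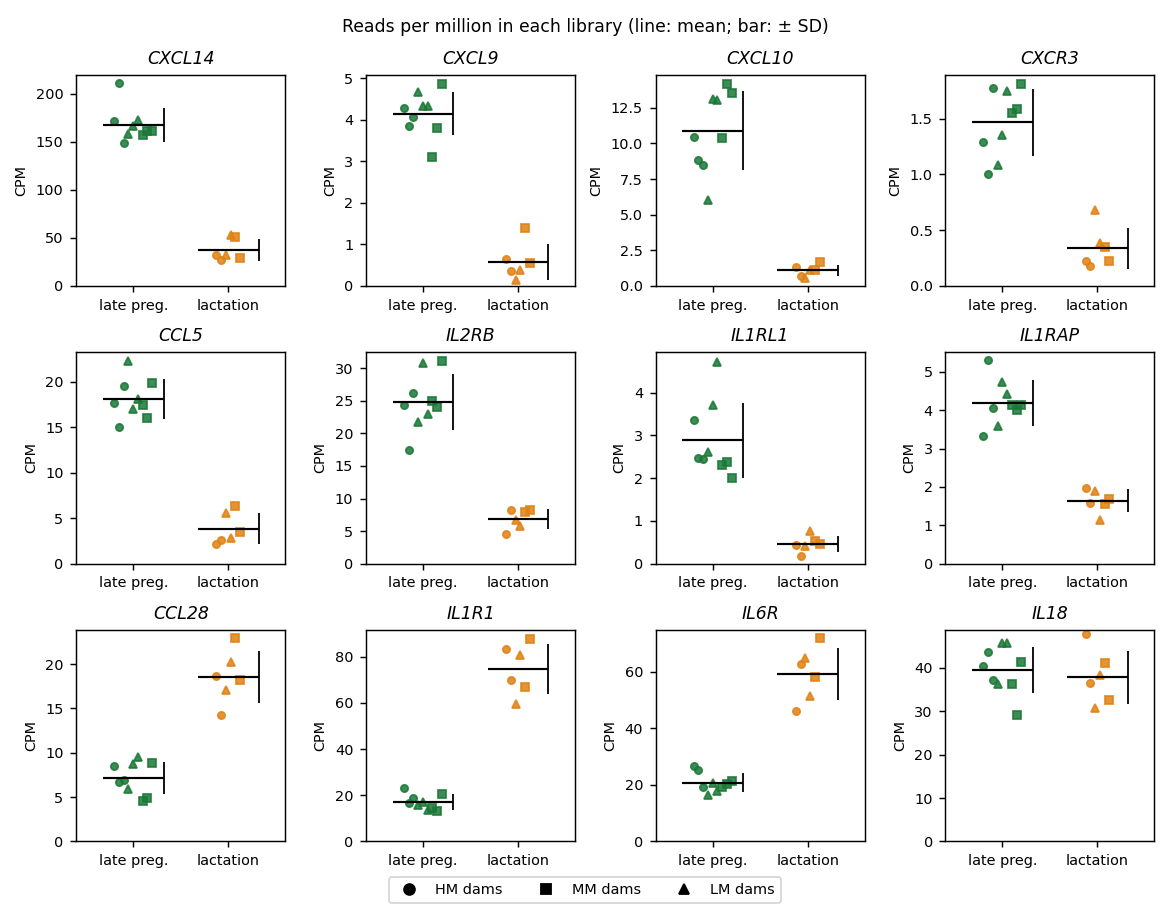
Each panel gives 1 gene, with CPM after TMM scaling on a linear vertical axis and a point for each of the 9 late pregnancy (green) and 6 lactation (orange) libraries; marker shapes are the dam nutrition groups, lines are means and bars ± SD. The states do not overlap in any panel except that of IL18, and CCL28, IL1R1 and IL6R are higher in lactation while the other 8 genes that separate are lower.

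The CC ligands went both ways. Of 9 that passed the read filter, 5 were lower, 1 was higher and 3 passed no threshold (median log2 change -0.76). CCL28, a mucosal chemokine of epithelium that attracts IgA plasma cells, was the one that rose. It was read at 4.6 to 9.55 CPM in late pregnancy (median 6.95) and 14.2 to 22.9 CPM in lactation (median 18.5), so that every lactation library lay above every library of late pregnancy, by 2.58 times in the mean (log2 change 1.37 ± 0.15, adjusted p = 1.39e-07). CCL5 (RANTES), a product of T cells that attracts further T cells and monocytes, fell in turn. It was read at 15.0 to 22.2 CPM in late pregnancy (median 17.7) and 2.2 to 6.34 CPM in lactation (median 3.17), without overlap, and its mean was 4.7 times lower (log2 change -2.13 ± 0.17, adjusted p = 7.13e-10). CCL11 (eotaxin), which attracts eosinophils, was read at 1.52 to 3.05 CPM in late pregnancy (median 2.07) and 0 to 0.678 CPM in lactation (median 0.349), again without overlap (log2 change -2.73 ± 0.37, adjusted p = 1.65e-06). It had 14 lactation reads in all and at most 5 in any lactation library, and passed the read filter through late pregnancy alone. CCL8, a monocyte chemokine, was read at 0.878 to 1.85 CPM in late pregnancy (median 1.26) and 0.113 to 0.571 CPM in lactation (median 0.240) (log2 change -2.29 ± 0.31, adjusted p = 2.16e-06). It had at most 3 reads in any lactation library, and against 3 reads per lactation library the mean of late pregnancy was at least 2.75-fold higher.

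CCL21, made by lymphatic endothelium, was read at 8.21 to 26.0 CPM in late pregnancy (median 14.6) and 4.57 to 10.8 CPM in lactation (median 6.81), with some overlap (log2 change -1.05 ± 0.25, adjusted p = 0.00111). CCL14 was read at 12.4 to 19.9 CPM in late pregnancy (median 14.6) and 6.5 to 12.2 CPM in lactation (median 8.0), without overlap (log2 change -0.76 ± 0.15, adjusted p = 1.20e-04). CCL26, an eosinophil chemokine, had the third highest level per kilobase among the 58 genes in both states and the widest spread. It was read at 8.94 to 50.6 CPM in late pregnancy (median 27.2) and 1.98 to 48.0 CPM in lactation (median 22.4), and the states were not told apart (log2 change 0.07 ± 0.42, adjusted p = 0.890). CCL2, the main monocyte chemokine, was read at 3.25 to 6.21 CPM in late pregnancy (median 3.96) and 2.82 to 5.82 CPM in lactation (median 3.01) (log2 change -0.23, adjusted p = 0.311). CCL23 gave a log2 change of -0.57 (adjusted p = 0.0957), with the lactation library of HM pool 1 at 4.40 CPM and the other 5 between 1.22 and 1.58.

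Chemokine receptors, which are carried mainly by leukocytes, were read at low levels. The 4 CXC and CX3C receptors that passed the filter had a median log2 change of -0.86, and 2 of them were lower in lactation. CXCR3, the receptor of CXCL9 and CXCL10 on activated T cells, was read at 1.01 to 1.81 CPM in late pregnancy (median 1.55) and 0.176 to 0.678 CPM in lactation (median 0.286). The states did not overlap (log2 change -2.06 ± 0.29, adjusted p = 2.62e-06). CCR7, the receptor of CCL21 that brings T cells and dendritic cells to lymphatics, was read at 0.347 to 1.18 CPM in late pregnancy (median 0.784) and 0 to 0.440 CPM in lactation (median 0.199) (log2 change -2.05 ± 0.48, adjusted p = 8.87e-04). It had at most 2 reads in a lactation library, which allows a fall of at least 1.65-fold against 3 reads per library.

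CXCR6, the receptor of CXCL16, was read at 0.194 to 0.753 CPM in late pregnancy (median 0.495) and 0 to 0.338 CPM in lactation (median 0.111) (log2 change -1.71 ± 0.49, adjusted p = 0.00461). It stood just inside the read threshold, had 6 lactation reads in all and lies within the locus of FYCO1, and only 50.0% of its reads were uniquely placed. No bound on its fall can be given, since its mean in late pregnancy was itself under the level of 3 reads per lactation library. CX3CR1, the receptor of CX3CL1 on monocytes and macrophages, was read at 1.28 to 3.04 CPM in late pregnancy (median 2.43) and 1.76 to 2.78 CPM in lactation (median 2.29), with a log2 change of -0.02 ± 0.17 (adjusted p = 0.922). CCR8, a receptor of skin-homing and regulatory T cells, was read at 0.832 to 1.58 CPM in late pregnancy (median 1.37) and 0.381 to 2.0 CPM in lactation (median 0.971) (adjusted p = 0.637). CXCR7, a scavenging receptor of CXCL12, was read at 0.366 to 1.7 CPM in late pregnancy (median 1.18) and 0.813 to 2.48 CPM in lactation (median 1.76). Its log2 change of 0.59 ± 0.27 did not pass the threshold with edgeR (adjusted p = 0.0583), whereas the gene was called higher by DESeq2 and by limma on the quantile-normalized RPKM.

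Leukocytes are a main source and target of these proteins, and the markers of several of their types were lower in lactation. All 8 T cell markers tested were lower in lactation (median log2 change -1.63), and their summed level was 50.3 to 79.4 CPM in late pregnancy and 16.5 to 24.7 CPM in lactation. LCK (-1.86) and CD3G (-1.83) changed most, and CD4 and CD8A did not pass the read filter. Of 7 pan-leukocyte markers, 5 were lower and none higher, with summed levels of 221 to 297 CPM in late pregnancy and 134 to 185 CPM in lactation. Of 8 macrophage markers, 6 were lower and 1, CD14, was higher (log2 change 2.13). CD14 is also known as a product of the mammary epithelium. Summed levels of the macrophage markers were 163 to 211 CPM in late pregnancy and 90.3 to 127 CPM in lactation. Endothelial markers were lower in 5 of 6 cases and fibroblast markers in 4 of 6, none of either being higher. Their summed levels were 173 to 234 CPM in late pregnancy and 103 to 145.8 CPM in lactation for endothelium, and 379 to 678 CPM in late pregnancy and 264 to 417 CPM in lactation for fibroblasts. These counts and those of the marker lists that follow stand beside 35.4% of all features lower and 33.3% higher. The part of these cell types in the changes of chemokines and interleukins was not tested.

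The markers of B and plasma cells did not move together. MZB1 (log2 change 2.54) and IGJ (0.91), both of antibody-secreting cells, were higher in lactation, and POU2AF1 was not called (0.46, adjusted p = 0.215). Whether these markers are linked to CCL28 was not tested. CD79A of the B cell receptor was lower (-1.27), PAX5 was at 0 in every library, and CD79B, MS4A1 and TNFRSF17 did not pass the read filter. The summed level of the 9 markers found was 29.3 to 76.1 CPM in late pregnancy and 62.4 to 152 CPM in lactation. IGJ made up most of it, at 24.7 to 70.8 CPM in late pregnancy and 57.6 to 144 CPM in lactation. Of 4 neutrophil markers tested, 2 were lower and MPO was higher (0 to 0.152 CPM in late pregnancy, 2.86 to 15.6 in lactation), and the list summed to 4.26 to 5.55 CPM in late pregnancy and 7.26 to 18.3 CPM in lactation. The adipocyte markers, with 0 of 6 called, summed to 249 to 452 CPM in late pregnancy and 326 to 411 CPM in lactation, and myoepithelial markers were lower in 2 and higher in 4 of 8 cases.

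**Figure D3:**
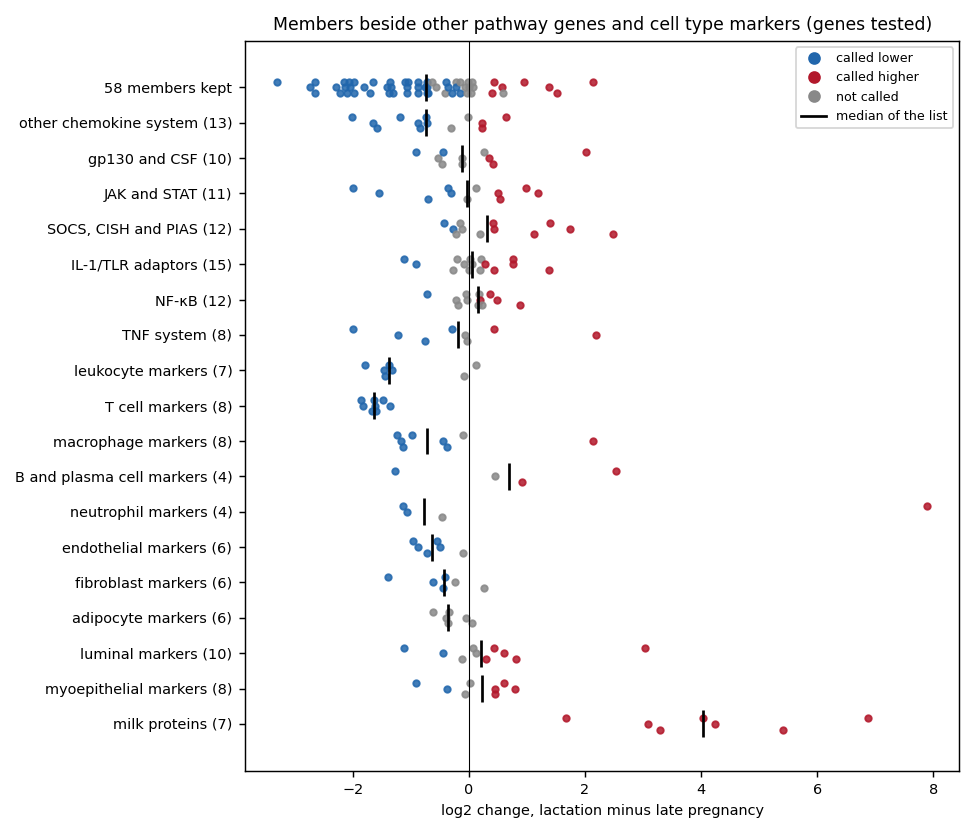
Each row is 1 list, with the number of genes tested in brackets, and each point is 1 gene's log2 change (lactation minus late pregnancy, horizontal axis), coloured blue where called lower, red where called higher and grey otherwise; the black bar is the median. The 8 T cell markers all lie between -1.86 and -1.35, beside a median of -0.74 for the 58 chemokine and interleukin genes, and the 7 milk protein genes all lie to the right.

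Of the 9 interleukins that passed the read filter, 6 were lower in lactation, none was higher and 3 were not called (median log2 change -0.70). IL34, a ligand of the macrophage receptor CSF1R, was read at 26.2 to 41.3 CPM in late pregnancy (median 29.8) and 8.78 to 15.4 CPM in lactation (median 13.0). The states did not overlap, and the mean was 2.59 times lower in lactation (log2 change -1.37 ± 0.13, adjusted p = 2.03e-08). IL16, a chemoattractant that acts through CD4, was read at 3.37 to 5.31 CPM in late pregnancy (median 4.88) and 1.23 to 2.25 CPM in lactation (median 2.01), also without overlap (log2 change -1.31 ± 0.15, adjusted p = 1.30e-07). IL7, a stromal growth factor of lymphocytes, was read at 0.823 to 1.85 CPM in late pregnancy (median 1.41) and 0.136 to 0.952 CPM in lactation (median 0.558), with overlap and on 21 lactation reads in all (log2 change -1.40 ± 0.33, adjusted p = 9.01e-04). IL15, which sustains natural killer cells and memory T cells, was read at 1.37 to 2.01 CPM in late pregnancy (median 1.57) and 0.450 to 1.9 CPM in lactation (median 0.989) (log2 change -0.70 ± 0.23, adjusted p = 0.0124). IL1A, an alarmin of damaged cells, was read at 0.518 to 1.22 CPM in late pregnancy (median 0.990) and 0 to 0.949 CPM in lactation (median 0.480) (log2 change -0.88 ± 0.36, adjusted p = 0.0350). IL23A, the subunit particular to IL-23, had a small fall (log2 change -0.36 ± 0.10, adjusted p = 0.00359), and its locus overlaps STAT2 at one end.

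IL18 and IL33, stored cytokines of epithelium and stroma that belong to the IL-1 family, were not called between the states. IL18 was read at 29.2 to 45.7 CPM in late pregnancy (median 40.3) and 30.6 to 47.7 CPM in lactation (median 37.4) (log2 change -0.07 ± 0.10, adjusted p = 0.550). The values were 10.2 to 16.1 CPM in late pregnancy (median 12.4) and 6.5 to 18.4 CPM in lactation (median 10.6) for IL33 (log2 change -0.04 ± 0.17, adjusted p = 0.854). IL17B gave a log2 change of -0.42 (adjusted p = 0.0941). Of the inhibitors, IL1RN, which blocks IL-1 at its receptor, was read at 0.743 to 2.3 CPM in late pregnancy (median 1.18) and 0.220 to 1.23 CPM in lactation (median 0.720) (log2 change -0.88 ± 0.34, adjusted p = 0.0262). IL18BP, which binds IL-18, was read at 11.7 to 19.3 CPM in late pregnancy (median 15.0) and 13.9 to 22.9 CPM in lactation (median 15.5) (log2 change 0.06 ± 0.12, adjusted p = 0.652). IL4I1, a secreted amino acid oxidase that is no cytokine in spite of its symbol, rose, with 9.23 ± 0.913 CPM in late pregnancy and 12.2 ± 1.16 CPM in lactation (log2 change 0.40 ± 0.09, adjusted p = 4.20e-04).

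Receptors of interleukins formed the largest group, with 17 lower, 4 higher and 3 not called of 24 that passed the read filter (median log2 change -0.72). Those of the IL-1 family diverged most. IL1R1, the signalling receptor of IL-1, had the largest rise of the 58 genes. It was read at 13.3 to 23.2 CPM in late pregnancy (median 16.6) and 59.5 to 87.8 CPM in lactation (median 75.4). No libraries overlapped, and the mean was 4.38 times higher in lactation (log2 change 2.13 ± 0.12, adjusted p = 2.50e-12). On library size alone the rise of IL1R1 was 0.23 on the log2 scale and not called. IL1RAP, the chain that IL1R1 needs to signal and that IL1RL1 also uses, went the other way. It was read at 3.32 to 5.3 CPM in late pregnancy (median 4.14) and 1.14 to 1.98 CPM in lactation (median 1.64), without overlap (log2 change -1.34 ± 0.15, adjusted p = 1.66e-07). IL1RL1 (ST2), the receptor of IL-33 on mast cells and lymphoid cells, was read at 2.01 to 4.72 CPM in late pregnancy (median 2.47) and 0.176 to 0.762 CPM in lactation (median 0.445), and did not overlap (log2 change -2.65 ± 0.30, adjusted p = 1.86e-07). IL18R1, the receptor of IL-18, was read at 0.296 to 2.02 CPM in late pregnancy (median 1.04) and 0.113 to 0.571 CPM in lactation (median 0.311) (log2 change -1.97 ± 0.50, adjusted p = 0.00165). It had at most 3 reads in a lactation library, and the bound on its fall is at least 2.36-fold.

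The chains of the IL-2 receptor group, which serve IL-2, IL-15, IL-7 and IL-21 on lymphocytes, were lower where they were called. IL2RB, shared by IL-2 and IL-15, was read at 17.4 to 31.1 CPM in late pregnancy (median 24.4) and 4.62 to 8.26 CPM in lactation (median 7.27). It did not overlap, and its mean was 3.61 times lower (log2 change -1.81 ± 0.14, adjusted p = 5.27e-10). IL2RG, the common gamma chain, was read at 9.69 to 13.3 CPM in late pregnancy (median 11.5) and 2.58 to 5.41 CPM in lactation (median 4.72), also without overlap (log2 change -1.36 ± 0.12, adjusted p = 5.04e-09). IL15RA, which presents IL-15, was read at 1.75 to 4.06 CPM in late pregnancy (median 2.46) and 0.225 to 1.32 CPM in lactation (median 0.557), again without overlap (log2 change -2.10 ± 0.34, adjusted p = 1.45e-05). IL21R stood just inside the read threshold at 0.152 to 0.823 CPM in late pregnancy (median 0.518) and 0 to 0.440 CPM in lactation (median 0.321). With an adjusted p of 0.0496 it was the gene closest to the threshold of the test, and at most 3 reads in a lactation library allow a fall of at least 1.24-fold. IL7R, in contrast, was read at 0.507 to 1.37 CPM in late pregnancy (median 0.813) and 0.527 to 1.32 CPM in lactation (median 0.822) (log2 change 0.04 ± 0.29, adjusted p = 0.917). IL2RA and the chemokine receptor CCR6 stood just outside the read threshold, with 10 reads in 5 libraries each, and 102 and 109 reads in all.

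Receptors of IL-6, IL-4 and IL-17B rose. IL6R, the ligand-binding chain for IL-6, was read at 16.3 to 26.8 CPM in late pregnancy (median 20.2) and 46.2 to 71.9 CPM in lactation (median 60.4). The states did not overlap, and the mean was 2.85 times higher in lactation (log2 change 1.52 ± 0.10, adjusted p = 9.15e-11). IL-6 itself had 11 reads over all 15 libraries, and IL6ST (gp130), the chain through which IL6R signals, gave a log2 change of -0.12 (adjusted p = 0.292). IL4R, the signalling chain for IL-4 and IL-13, was read at 19.7 to 26.1 CPM in late pregnancy (median 24.0) and 33.2 to 38.7 CPM in lactation (median 35.3), without overlap (log2 change 0.57 ± 0.06, adjusted p = 1.09e-07). Its partner IL13RA1 was slightly lower, with 28.3 ± 3.17 CPM in late pregnancy and 21.3 ± 2.37 CPM in lactation (log2 change -0.40 ± 0.09, adjusted p = 3.38e-04). IL17RB, which binds IL-17B and IL-25, was read at 2.47 to 3.91 CPM in late pregnancy (median 3.14) and 4.86 to 6.91 CPM in lactation (median 6.23), without overlap (log2 change 0.95 ± 0.12, adjusted p = 4.72e-07). On library size alone these 3 rises turn into falls of 0.39, 1.34 and 0.95 on the log2 scale for IL6R, IL4R and IL17RB, each less than the shift of the median of all features to -1.93.

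The other IL-17 receptors were lower. IL17RE, an epithelial receptor of IL-17C, was read at 3.04 to 5.55 CPM in late pregnancy (median 4.36) and 0.901 to 1.98 CPM in lactation (median 1.22), without overlap (log2 change -1.65 ± 0.20, adjusted p = 5.09e-07). IL17RA, the common chain, and IL17RC, its partner for IL-17A, changed by -0.22 and -0.28 with overlap (adjusted p = 0.0377 and 0.0198), and IL17RD by -1.10 (adjusted p = 0.0103). IL20RA, an epithelial receptor chain of IL-20 and IL-24, was read at 1.94 to 3.84 CPM in late pregnancy (median 2.21) and 0.450 to 0.813 CPM in lactation (median 0.681), without overlap (log2 change -1.98 ± 0.25, adjusted p = 6.35e-07). Its partner IL20RB changed by -0.72 (adjusted p = 0.0263), with 1 lactation library at 2.14 CPM and the other 5 between 0.527 and 0.813. IL12RB1, a chain of the IL-12 and IL-23 receptors of T cells and natural killer cells, was read at 1.15 to 2.01 CPM in late pregnancy (median 1.55) and 0.136 to 0.608 CPM in lactation (median 0.223), without overlap (log2 change -2.22 ± 0.30, adjusted p = 1.56e-06). IL12RB1, IL20RA and IL17RD had at most 7, 6 and 4 reads in any lactation library and passed the read filter through late pregnancy alone. IL10RA changed by -0.72 without overlap (adjusted p = 2.63e-04) and IL11RA by -0.16 with overlap (adjusted p = 0.0364). IL27RA and IL3RA were not called, at log2 changes of 0.00499 and -0.63 (adjusted p = 0.971 and 0.0929).

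Several of the smaller changes lost or gained a call with a single library. Besides CXCL12, 7 of the genes called lower were tested and lost their call when 1 library was left out. CCR7, CXCR6 and IL21R, which reached 10 reads in exactly 6 libraries, fell below the read filter and could not be tested without any 1 of 6 late pregnancy libraries each. IL11RA lost it without any of 8 libraries (HM pool 3, LM pools 1 and 3 and MM pool 3 of late pregnancy, both HM pools, LM pool 1 and MM pool 1 of lactation), at log2 changes of -0.16 to -0.13. IL17RA lost it without MM pool 3 of late pregnancy or HM pools 1 and 2, LM pool 1 or MM pool 2 of lactation (-0.23 to -0.17), and IL17RC without HM pool 1 or MM pool 1 of lactation (-0.23 and -0.25). IL1A lost it without LM pools 2 or 3 of late pregnancy or HM pool 2, LM pool 2 or MM pool 2 of lactation (-0.85 to -0.68), and IL1RN without HM pool 1, LM pool 2 or MM pool 2 of lactation (-0.82 to -0.73). IL20RB lost it without any lactation library other than MM pool 2 (-0.68 to -0.61). IL21R lost it without HM pool 2 or MM pool 3 of late pregnancy or HM pool 2, LM pool 2 or either MM pool of lactation (-1.17 to -0.74). In the other direction, CCL23 was called lower without HM pool 1 of lactation (-0.93), CCL2 without MM pool 1 of lactation (-0.49) and IL17B without MM pool 2 of late pregnancy (-0.48). IL3RA was called lower without HM pool 2 of lactation, LM pool 2 or MM pool 1 of late pregnancy (-0.85 to -0.72). CXCR7 was called higher without LM pool 1 of lactation, HM pool 3 or MM pool 3 of late pregnancy (0.63 to 0.74).

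Ligands and receptors that both passed the read filter are set side by side here in 10 combinations. Both sides were lower in lactation for CCL21 and CCR7, CXCL9 and CXCR3, CXCL10 and CXCR3, CXCL16 and CXCR6, and IL15 and IL15RA. The ligand alone was lower for CX3CL1 (-0.88) beside CX3CR1 (-0.02) and for IL7 (-1.40) beside IL7R (0.04). The receptor alone was lower for IL33 (-0.04) beside IL1RL1 (-2.65) and for IL18 (-0.07) beside IL18R1 (-1.97). A lower ligand stood beside a higher receptor in the combination of IL1A (-0.88) and IL1R1 (2.13). Whether ligand and receptor changed by different amounts was not tested. Of these genes, CCR7, CXCR3, CXCR6, IL1RL1, IL18R1, IL1A, IL7 and IL7R reached 10 reads in no lactation library. They passed the read filter through late pregnancy alone, so combinations with them are not evidence of a shared direction. No bound can be given on the fall of CXCR6.

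Per kilobase of exon, the order of levels differed between the states. In RPKM (CPM divided by the exon length in kilobases, mean ± SD), late pregnancy was led by CXCL14 (109 ± 11.5), IL18 (51.2 ± 6.9), CCL26 (35.5 ± 20.7), CCL5 (24.3 ± 2.92) and IL34 (18.9 ± 3.36). The lactation order began with IL18 (49.0 ± 7.96), CCL28 (42.2 ± 6.65), CCL26 (36.3 ± 23.1), CXCL14 (24.3 ± 7.37), IL1R1 (20.0 ± 2.93) and IL6R (19.9 ± 3.14). The means of IL18, CCL28 and CXCL14 lay within 1 SD of that of CCL26 there, whose spread was the widest of the 58. The level of CCL28 per kilobase rests on an annotated exon length of only 440 bases. CXCL14 thus lost the lead it had in late pregnancy, and CCL5 stood at 5.16 ± 2.28 RPKM. The 58 genes together held 631 to 728 CPM in late pregnancy and 496 to 585 CPM in lactation.

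**Figure D4:**
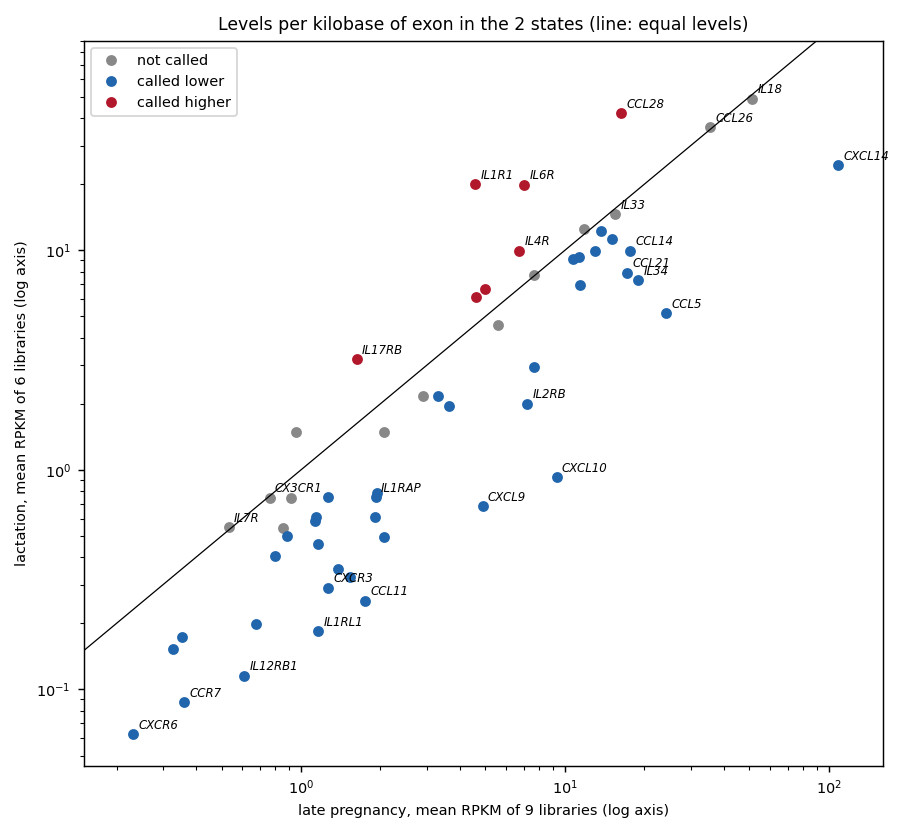
Each point is 1 of the 58 genes, at its mean RPKM over 9 late pregnancy libraries (horizontal log axis) and 6 lactation libraries (vertical log axis), coloured by the call; the line marks equal levels. CCL28, IL1R1 and IL6R stand above the line, CXCL14, CCL5, CXCL10 and CXCL9 well below it, and IL18 and CCL26 close to it.

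Intron reads, obtained by subtracting the exon reads of a gene from its total, were counted apart from the exon reads. They can come from unspliced transcripts, from exons absent from the annotation or from overlapping genes, and these sources were not told apart. On introns, 36 of the 58 genes had enough reads to be tested. Of these, 19 (52.8%) were lower and 4 (11.1%) higher in lactation, against 28.4% and 28.6% of all features tested on introns. All 28 genes of the 36 that were called on exon reads had the same sign on introns, and 21 of them were also called there. The 36 had already passed the filter on exon reads of the same libraries, and the same filter was applied to introns. These counts therefore describe the genes that passed and are not evidence of a direction, and the shared sign is not independent support. IL1R1 (2.30 on introns, 2.13 on exons), IL6R (1.64 and 1.52), IL4R (0.51 and 0.57) and IL17RB (0.71 and 0.95) rose on both. CCL28 did not, with a log2 change of 0.06 on introns (adjusted p = 0.833) beside 1.37 on exons. Its annotated exons hold only 440 bases, and it had 2526 intron reads beside 2195 exon reads over all libraries. CXCL14 fell further on introns (-4.82) than on exons (-2.15), as did IL1RL1 (-3.48 and -2.65), IL18R1 (-3.74 and -1.97) and IL7 (-2.60 and -1.40). IL18 and IL33, not called by edgeR on exons, were called lower on introns (-0.31 and -0.57). Limma on the quantile-normalized RPKM also called IL18 lower (-0.32). The difference between the exon and the intron change of a gene was not tested.

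**Figure D5:**
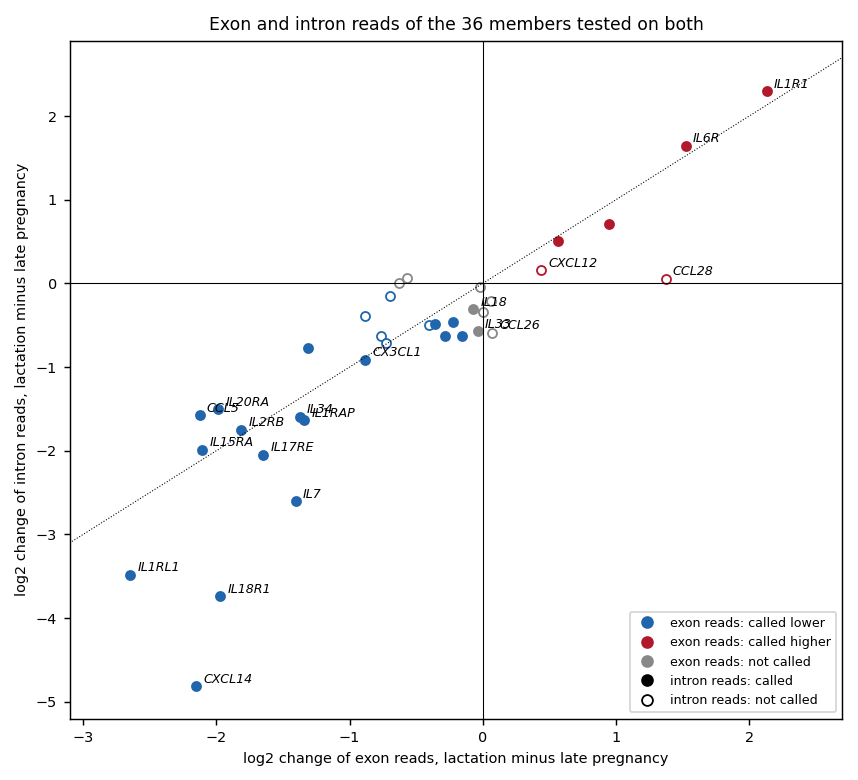
Each point is 1 of the 36 genes tested on both kinds of read, with the log2 change of exon reads on the horizontal axis and of intron reads on the vertical axis (lactation minus late pregnancy); colour is the call on exons, filled points were called on introns, and the dotted line marks equal changes. CCL28 lies at 1.37 on exons and 0.06 on introns, whereas IL1R1 and IL6R lie close to the dotted line.

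Several of these genes lie side by side in the genome. Positions are those of the deposited table, for which the processing notes name Oar_v3.1, whereas the methods of the study give another version of the sheep genome, and the build is not settled here. On chromosome 3, IL18R1 (chr3:99242159-99268443) and IL1RL1 (chr3:99279359-99299243) stand 10916 bases apart and were both lower, and IL1R1 (chr3:99470320-99526517), which starts 171077 bases beyond IL1RL1 with 1 annotated feature between, was higher. On chromosome 24, IL4R (chr24:24897920-24922187) was higher and IL21R (chr24:24967096-25001936), the next annotated feature at a distance of 44909 bases, was lower. The neighbours CXCL9 (chr6:90526368-90531540) and CXCL10 (chr6:90550571-90552924) on chromosome 6 were both lower. On chromosome 19, IL17RC and IL17RE, separated by 1446 bases, fell by 0.28 and 1.65 on the log2 scale. The CC ligands of chromosome 11 stand in 2 clusters, with CCL23, CCL14 and CCL5 in one and CCL8, CCL11 and CCL2 in the other. In each cluster the 2 genes called were lower, and the third, CCL23 or CCL2, was not called.

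Whether the feed of the dam left a trace in these genes was asked in late pregnancy, with 3 pools in each of 3 groups, and as an interaction with the state. By edgeR, 0 of the 58 genes were called between the dam nutrition groups, against 0.00% of 13692 features tested, and 0 in the interaction, against 0.00% of 13252. DESeq2 also called none of the 58 in either, and 20 and 19 of all features. At an unadjusted p under 0.05 edgeR gave 3 of the 58 in late pregnancy, CCL26, IL1RL1 and IL6R, where 4.13% of all features passed. CCL26 was read at 32.3 to 50.6 CPM in HM, 9.16 to 27.2 CPM in MM, 8.94 to 31.6 CPM in LM, so that every HM pool lay above every pool of the other groups (adjusted p = 1.000). For IL6R the values were 19.4 to 26.8 CPM in HM, 19.4 to 21.2 CPM in MM, 16.3 to 20.5 CPM in LM. The interaction gave 5 genes at an unadjusted p under 0.05, CCL14, CCL26, CXCL9, IL2RG and IL33, beside 6.56% of all features, with the lowest adjusted p at 0.731. In lactation IL33 was read at 6.5 to 9.68 CPM in HM, 17.3 to 18.4 CPM in MM, 8.68 to 11.6 CPM in LM. All 45 genes called between the states had the same sign within each dam nutrition group, and 22 of them were called in every one. These groups are parts of the same libraries that gave the 45 calls, so the shared sign is not independent support. The matching shares over all features are not given here. In simulated counts, the test of dam nutrition recovered 66% of changes of 1 on the log2 scale and 22% of changes of 0.5. The test of the interaction recovered 40% and 4%, so that smaller differences could have been missed. The changes were planted in features drawn at random from 13252, and no other difference between the states was simulated. They were planted in the LM group alone, and for the interaction in its lactation pools alone. Other patterns among the groups were not simulated. Recovery for the 58 genes, many of them of low level, was not measured.

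Genes that carry the signals of these receptors did not share one direction. The counts below stand beside 35.4% of all features lower and 33.3% higher, and in lists this short they are not evidence of a direction. Of 13 other genes of the chemokine system tested, 8 were lower and 3 higher in lactation, among them the lymphocyte chemokine XCL1 (-2.01) and the leukocyte GTPase RAC2 (-1.65). Of 11 Janus kinases and STAT factors, 5 were lower and 4 higher. STAT4, which acts downstream of IL-12, fell by 2.0 and JAK3, the kinase bound to IL2RG, by 1.54 on the log2 scale. Of 12 inhibitors of cytokine signalling (SOCS, CISH and PIAS genes), 2 were lower and 6 higher, led by SOCS1 (2.48, adjusted p = 8.63e-07) and CISH (1.74, adjusted p = 9.78e-14), both negative regulators of Janus kinase signalling. Of 10 genes of the gp130 and colony-stimulating factor group, 2 were lower and 3 higher, including LIFR (2.02), the receptor of leukaemia inhibitory factor, and CSF2RA (-0.91).

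Of 15 adaptors of IL-1 and Toll-like receptors, 2 were lower and 5 higher, and the part higher was about that of all features (33.3%). MYD88, the adaptor that IL1R1 recruits, changed by 1.39 (adjusted p = 4.07e-11) and the inflammasome sensor NLRP3 by -1.12 (adjusted p = 0.00142). Of 12 NF-κB genes, 1 was lower, the inhibitor TNFAIP3 (-0.72), and 4 were higher, the transcription factor RELA most (0.89). The part higher was again about that of all features. The tumour necrosis factor group had 4 lower and 2 higher of 8, with LTB, a lymphoid cytokine, at -2.0 and TNFSF13 (APRIL), a survival factor of plasma cells, at 2.18. The median log2 changes of these lists ran from -0.75 for the other chemokine genes to 0.31 for the SOCS, CISH and PIAS genes.

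The other 63 genes with a chemokine or interleukin symbol did not pass the read filter. In 50 of them no library reached 10 reads, and 10 had no read in any library, among them IL17A, IL21, IL9, IL36A, IL36G and CXCL1. The inflammatory signals IL6 and IL8 had 11 and 91 reads over all 15 libraries, and the anti-inflammatory IL10 had 54. Of the T helper cytokines, IL4, IL5 and IL2 had 3, 3 and 2 reads. Without a read filter the 53 genes with any read could be tested, and edgeR called 7 of them lower and 5 higher. The lower ones were CCL19, CCL22, CXCL11, CCR6, IL12RB2, IL2RA and IL31RA, each with at most 9 reads in lactation over 6 libraries and at least 34 in late pregnancy over 9. The higher ones were CCL24, IL27, CCR9, IL1R2 and IL17C, with 3 to 34 reads in lactation and 1 to 64 in late pregnancy. IL17C had the fewest, 3 in lactation and 1 in late pregnancy. The share of all features called in this fit is not given here, so these counts are not evidence of a direction. CXCR4, CXCR1, IL1B and IL10RB are not among the symbols of the table and were not analysed here.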

How the data were processed

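Paired-end Illumina reads of TruSeq V2 libraries were mapped to the sheep genome by the authors with CLC Genomics Workbench. The deposited table lists, per the file headers, unnormalized counts of total and of uniquely placed reads for 24691 features, over exons alone and over the gene. Its RPKM values, quantile-normalized across the 15 libraries by the authors, served only as an alternative. Columns with the authors' own comparison (fold changes and p-values) were not used. The genome build is Oar_v3.1 in the processing notes and another version in the study's methods, and strandedness is not given in the sources used here.

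Exon counts were analysed (whole-gene counts for the 5583 features with no annotated transcript, none of them a chemokine or interleukin gene). The 13252 features with at least 10 reads in at least 6 libraries entered edgeR 4.0.16 (R 4.3.3), with TMM scaling, estimated dispersions and the quasi-likelihood F-test for the state as the sole term. Benjamini-Hochberg adjustment covered every feature tested, and a gene was called at an adjusted p under 0.05. The SE is the log2 change divided by the square root of F. A second fit compared the 3 dam nutrition groups within late pregnancy (at least 10 reads in 3 of the 9 libraries), and another tested, over all libraries, whether the change between states differed among them. The fits were tested on simulated counts with known changes. CPM and RPKM used the TMM library sizes. Reads were counted without molecular identifiers, and the spread between pools is the measure of error. The labels do not say that pools with the same number share ewes. DESeq2 1.42.0 and limma 3.58.1 were alternatives, as were other scalings, filters and covariates, each dam nutrition group alone, and leaving out each library.

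The genes were chosen by symbol, and the pathway and cell type lists were written, with earlier results of these data known. In each role the rule named up to 4 called genes with the largest change and the 2 of highest level, all ligands and receptors whose partner passed the filter, and those at the read threshold. In the other lists it named up to 2 called genes with the largest change. Other genes, among them IL6R, IL4R, IL17RB, CXCL12, IL6ST and IGJ, were named after their values were seen. The values of 1 of the 58 genes are not reported here, although the counts include it.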

Additional observations from a re-analysis of the deposited data

Results flagged for a closer look

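In 116 sets of values, the 58 genes in each of the 2 states, a single library stood apart from the rest of its state by Dixon's criterion in 10 cases, where chance alone gives about 1 in 20. In lactation, HM pool 1 was the highest library for CCL23 (4.40 CPM, the others 1.22 to 1.58) and for IL18BP (22.9 CPM, the others 13.9 to 15.9). HM pool 2 was the highest for IL3RA (1.23 CPM, the others 0.381 to 0.695). MM pool 1 was the highest for CCL2 (5.82 CPM, the others 2.82 to 3.52), and MM pool 2 for IL20RB (2.14 CPM, the others 0.527 to 0.813). LM pool 2 was the highest for CCL8 (0.571 CPM, the others 0.113 to 0.271), at no more than 3 reads. In late pregnancy, HM pool 2 was the highest for CXCL14 (210.6 CPM, the others 148.7 to 172.6), MM pool 3 the highest for IL17RA (18.9 CPM, the others 13.2 to 15.0), HM pool 1 the lowest for IL16 (3.37 CPM, the others 4.65 to 5.31) and LM pool 3 the lowest for IL21R (0.152 CPM, the others 0.502 to 0.823). No interaction of dam nutrition with the state was called for any of the 58 genes.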

How the results depend on the processing

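The count of 38 genes lower in lactation lay between 31 and 44 under other scalings but library size alone, other filters, unique reads, covariates, the replicate block and the other tools, and between 34 and 37 without any 1 library. The count of 7 higher lay between 6 and 8 there, except that without a filter, with 111 genes tested, it was 12. With library size alone 57 were lower and 0 higher, and 11 genes turned from a positive to a negative log2 change: CCL26 (-1.85), CCL28 (-0.53), CXCL12 (-1.47), CXCR7 (-1.31), IL17RB (-0.95), IL18BP (-1.83), IL27RA (-1.90), IL4I1 (-1.50), IL4R (-1.34), IL6R (-0.39) and IL7R (-1.85), as the median of all features moved to -1.93. Fewer libraries left 24 lower within the MM group and 22 within the HM group (26 within LM), and intron reads, an alternative chosen after seeing the data that tested 40 genes, gave 20. No gene called in both fits had opposite signs under any alternative other than library size alone. Among the 58 genes, the counts called for dam nutrition and for its interaction were 0 under every alternative run, DESeq2 included.

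With dam nutrition and pool number as a replicate block, 31 genes were lower and 7 higher; IL11RA, IL15, IL17RA, IL17RD, IL1A, IL20RB and IL21R lost their call. Deviations from the state means of same-numbered pools correlated between -0.03 and 0.09, and 2 of 6 lactation pools correlated best with their own number. These correlations cannot decide whether same-numbered pools share ewes. The lane named in the file headers, a single one per library, changed no call as a covariate. The sample descriptions state that each library was run on 2 lanes that were combined, so this covariate may not describe the sequencing. Depth limits the genes with at most 3 reads per lactation library (CCL8, CCR7, CXCR6, IL18R1, IL21R). With these at their bounds, the median log2 change of the 58 genes was -0.72.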
